A study of Mus musculus with 6 samples.

Results

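The H3K4me3 state of 10 genes of the Bcl2 family was described in a T cell and a B cell progenitor line of the mouse. The genes were chosen by name for their role in survival and death, by a rule that uses no measured value, although earlier results of these data were known: the anti-apoptotic genes Bcl2, Bcl2l1 and Mcl1, the BH3-only genes Bcl2l11, Bmf, Bbc3, Pmaip1 and Bid, and the effector genes Bax and Bak1. They are 10 of 21951 protein-coding genes and of 55450 annotated genes in all. H3K4me3 ChIP-seq was performed with a Millipore antibody in Scid.adh.2C2 and in a B-cell progenitor line, with 2 ChIP libraries and 1 input library for each line. Scid.adh.2C2 is a pro-T line derived from a tumour of a CB17-Prkdc scid mouse, a strain with a defect in the joining of antigen receptor gene segments, and the B-cell progenitor line, called the B progenitor line here and labelled by its line number in the plots, was transformed by the Abelson virus. Each is a single line grown in culture, without a treatment, and both are malignant or transformed cells. Differences between the lines therefore cannot be told apart from differences between the T and B lineages, the mice of origin and the means of transformation.

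Proteins of the Bcl2 family decide whether the outer membrane of the mitochondrion stays closed. Bax and Bak form the pores that release cytochrome c, Bcl2, Bcl-xL (from Bcl2l1) and Mcl1 hold them back, and the BH3-only proteins either block the survival proteins or activate Bax and Bak. Lymphocyte progenitors whose receptor gene rearrangements fail die through this pathway, and H3K4me3, a histone mark laid down around active transcription start sites (TSSs), describes the state of its promoters without measuring the amount of RNA.

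For each line the authors deposited 1 list of peaks in which both ChIP libraries were already combined. The lists hold no value per library, so that no spread between replicates can be given, no difference between the lines can be tested, and the sequencing depth is unknown. Scid.adh.2C2 had 15513 peaks, 1542 bp wide and 20.3-fold enriched over background in the median, and the B progenitor line had 19604, with medians of 1590.5 bp and 15.4-fold. The fold values were not scaled between the lines, so that a higher fold in one list is not by itself a higher rank. Most promoter folds are therefore given with the percentile among all peaks of the same list. A gene is called marked where a peak reached within 2500 bp of any of its annotated TSSs. All 8 pro-T marker genes were marked in Scid.adh.2C2 and 2 of the 8 (Lck and Tcf7) in the B progenitor line. All 8 pre-B marker genes were marked in the B progenitor line and 1 of the 8 (Vpreb1) in Scid.adh.2C2. Of 10 markers of other haematopoietic cells, 1 (Klf1) was marked, in both lines.

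The promoters shown are those of Bcl2 and Bcl2l1, whose peaks differed most in width between the lines, those of Bcl2l11 and Bak1, which were covered over different lengths, and that of Bax, at which the peaks were nearly the same. The sequences are from the RefSeq promoter table of build GRCm38.p6, run 5′ to 3′ on the strand of the gene and are 300 bases long, most of them upstream of a start site. A total of 16 such promoters were matched to 9 of the members, and that of Pmaip1 was not matched. Capitals mark matches on either strand to 9 short motifs: the CCAAT box, the GC box GGGCGG, the TATA motif TATAAA, the ETS core CCGGAA, the E box CACGTG, the NRF1 core GCGCATG, the Foxo motif GTAAACA, the Runx motif TGTGGT and the NF-kB part GGGACTT. The Bcl2 promoter (chr1:106714241-106714540, minus strand) lay inside the peak of both lines. The upstream Bcl2l1 promoter (chr2:152831679-152831978, minus strand) had 102 of its 300 bases in a peak in Scid.adh.2C2 and all 300 in the B progenitor line. The internal Bcl2l1 promoter (chr2:152828440-152828739, minus strand) had 0 bases in a peak in Scid.adh.2C2 and 300 in the B progenitor line. The upstream Bcl2l11 promoter, the one shown (chr2:128125788-128126087, plus strand), had 300 bases in a peak in Scid.adh.2C2 and 67 in the B progenitor line. Its other bases in that line lay in a short gap between neighbouring promoter peaks. A downstream Bcl2l11 promoter (chr2:128127325-128127624, plus strand), not shown, had the opposite order, with 231 bases in Scid.adh.2C2 and 300 in the B progenitor line. The Bak1 promoter (chr17:27028578-27028877, minus strand) had 300 and 60, and the Bax promoter (chr7:45466849-45467148, minus strand) had 300 in both.
Bcl2: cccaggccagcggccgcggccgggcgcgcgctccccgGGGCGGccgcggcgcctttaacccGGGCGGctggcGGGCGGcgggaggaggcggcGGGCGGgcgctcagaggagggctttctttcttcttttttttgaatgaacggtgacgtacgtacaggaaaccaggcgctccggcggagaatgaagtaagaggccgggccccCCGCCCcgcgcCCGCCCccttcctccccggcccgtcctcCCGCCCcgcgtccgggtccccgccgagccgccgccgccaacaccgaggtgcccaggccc
Bcl2l1 upstream: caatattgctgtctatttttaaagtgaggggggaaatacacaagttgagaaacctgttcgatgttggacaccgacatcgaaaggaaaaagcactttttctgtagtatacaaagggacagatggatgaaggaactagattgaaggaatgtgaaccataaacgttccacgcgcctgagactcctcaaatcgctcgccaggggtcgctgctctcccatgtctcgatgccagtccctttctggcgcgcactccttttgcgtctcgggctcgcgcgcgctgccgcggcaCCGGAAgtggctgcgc
Bcl2l1 internal: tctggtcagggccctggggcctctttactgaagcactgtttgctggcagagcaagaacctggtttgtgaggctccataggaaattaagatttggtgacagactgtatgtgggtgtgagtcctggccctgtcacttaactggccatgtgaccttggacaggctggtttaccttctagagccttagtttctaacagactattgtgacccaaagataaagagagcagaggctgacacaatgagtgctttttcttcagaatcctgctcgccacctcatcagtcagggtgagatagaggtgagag
Bcl2l11: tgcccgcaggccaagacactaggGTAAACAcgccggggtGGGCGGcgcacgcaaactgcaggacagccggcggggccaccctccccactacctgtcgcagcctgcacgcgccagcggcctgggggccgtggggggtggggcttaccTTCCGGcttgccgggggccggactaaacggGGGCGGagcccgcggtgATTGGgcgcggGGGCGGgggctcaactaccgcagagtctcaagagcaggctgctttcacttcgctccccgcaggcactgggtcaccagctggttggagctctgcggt
Bak1: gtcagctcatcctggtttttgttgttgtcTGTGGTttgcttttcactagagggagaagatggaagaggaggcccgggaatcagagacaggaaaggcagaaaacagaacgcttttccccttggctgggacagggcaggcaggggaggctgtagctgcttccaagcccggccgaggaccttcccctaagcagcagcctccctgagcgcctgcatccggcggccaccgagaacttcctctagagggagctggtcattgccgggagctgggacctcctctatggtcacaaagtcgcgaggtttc
Bax: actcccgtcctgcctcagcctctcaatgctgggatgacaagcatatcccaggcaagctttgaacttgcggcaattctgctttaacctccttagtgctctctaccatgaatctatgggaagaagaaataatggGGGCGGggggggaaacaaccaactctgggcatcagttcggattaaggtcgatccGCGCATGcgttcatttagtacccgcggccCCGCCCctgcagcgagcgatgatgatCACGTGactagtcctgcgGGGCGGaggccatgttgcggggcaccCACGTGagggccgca

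Most of the members' promoters were rich in CpG beside all promoters of the table. Their median GC content was 61%, against 52.7% over all 32841 promoters of the table, and the median ratio of observed to expected CpG was 0.748 against 0.384. A ratio of at least 0.6 was reached by 11 of the 16, against 35.8% of all promoters. It was not reached by the Bmf promoters (0.319, 0.287 and 0.567), the Bak1 promoter (0.435) and the internal Bcl2l1 promoter. The shares among promoters of marked genes were not counted, so these values are not read as a trait of the members. The Bcl2 promoter held 7 GC boxes, and its CpG ratio was 1.02. The internal Bcl2l1 promoter differed from it in both respects, with a CpG ratio of 0.056 and none of the 9 motifs, although it was covered by a peak in the B progenitor line. GC boxes were found in 10 of the 16 promoters, against 35.7% of all promoters. CCAAT was found in 5 (37.4% of all), the ETS core in 4 (14.9%), the E box in 2 (7.15%), the Foxo motif in 2 (3.65%), the Runx motif in 2 (16.8%), the NRF1 core in 1 (3.91%) and the NF-kB part in 1 (5.44%). TATAAA was found in 0 of the 16, against 13.6% of all promoters. The Bax promoter carried 2 E boxes and the NRF1 core, and the upstream Bcl2l11 promoter carried 3 GC boxes, 1 CCAAT, 1 ETS core and 1 Foxo motif. These matches describe the letters of the window and are not binding sites. The 16 promoters are not separate genes, as several members had more than 1. A pair of Bbc3 windows (chr7:16310011-16310310 and chr7:16310181-16310480) also overlap and share matches.

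Nearly every member was marked in both lines. In Scid.adh.2C2, 9 of the 10 promoters carried a peak, against 45.5% of all protein-coding genes, and in the B progenitor line all 10 did, against 48.2%. A peak in both lines was found for 9, against 42.2% of all genes. Only Pmaip1 was marked in the B progenitor line alone, a pattern of 5.96% of all genes, and 0 members were marked in Scid.adh.2C2 alone, a pattern of 3.28%. The highest fold enrichment of the marked members had a median of 28.7 in Scid.adh.2C2 and of 25.3 in the B progenitor line, against 27.1 and 21.7 over all marked protein-coding genes. The members differed more in the width of their peaks than in their presence, and the widest differences lay at the survival genes Bcl2 and Bcl2l1.

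**Figure D1:**
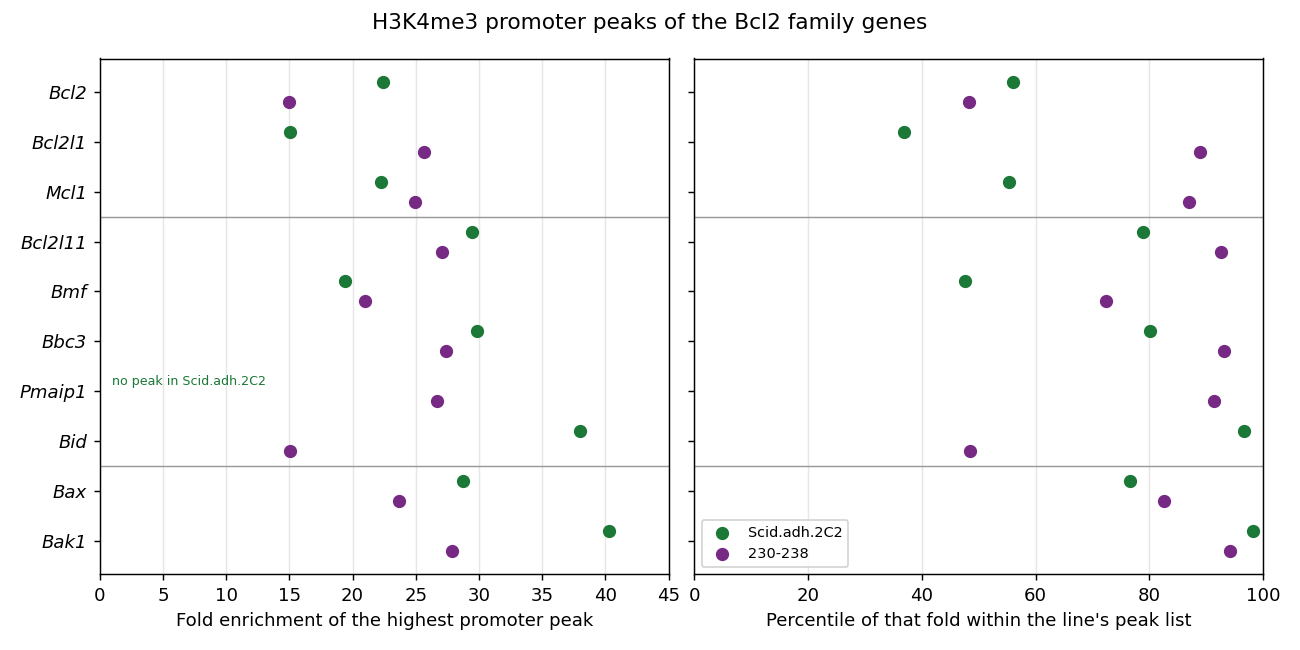
Highest H3K4me3 fold enrichment of a promoter peak (left, x axis in fold over background) and its percentile among all peaks of the same list (right, x axis from 0 to 100) for each gene (y axis), with 1 point per line and lines between the anti-apoptotic, BH3-only and effector genes. Bcl2l1 moved from the 36.8th percentile in Scid.adh.2C2 to the 88.8th in the B progenitor line, Bid moved the other way from 96.5 to 48.5, and Pmaip1 has no point in Scid.adh.2C2.

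Bcl2 encodes the founding survival protein of the family, which protects lymphocytes in particular. The gene (ENSMUSG00000057329) lies on the minus strand of chromosome 1 from 106538178 to 106714274 in GRCm38 and has 2 annotated TSSs. In Scid.adh.2C2 its promoter peak was 22.4-fold enriched, at the 56.0th percentile of the list, and 1675 bp wide (chr1:106713553-106715227). In the B progenitor line the peak was 15.0-fold enriched, at the 48.2nd percentile, and 8858 bp wide (chr1:106706595-106715452). The peak of the B progenitor line contained the whole peak of Scid.adh.2C2, which made up 18.9% of it, and ran 7679 bp into the gene from the upstream TSS. The summit lay in an exon in both lines, 40 bp downstream of the nearest TSS in Scid.adh.2C2 and 928 bp downstream of the nearest TSS in the B progenitor line, with 1983 bp between them. The B progenitor line thus had a wide and moderately enriched peak, whose width reached the 99.9th percentile of the list. The peaks contained 1 of the 2 TSSs in Scid.adh.2C2 and both in the B progenitor line. Ranked by −log10 q in place of the fold, the Bcl2 peak was at the 46.9th percentile in Scid.adh.2C2 and the 78.1st in the B progenitor line, the opposite order.

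H3K4me3 in the B progenitor line was also found deep inside the Bcl2 gene. In this line 7 peaks overlapped the gene body and covered 10.6% of its 176.097 kb, and in Scid.adh.2C2 1 peak covered 0.410%. Apart from the promoter peak, the 6 peaks in the B progenitor line had their summits in introns, at 17391, 18875, 25451, 100068, 100788 and 112574 bp downstream of the nearest TSS. The highest of them was 13.2-fold enriched (chr1:106687198-106689605) and the lowest 6.17-fold (chr1:106695017-106696392). A further pair of peaks lay beyond the 3′ end of the gene in the B progenitor line only, of which the higher was 15.5-fold enriched (chr1:106522555-106523761). The next promoter upstream, that of Kdsr, carried a peak in both lines. It was 28.2-fold enriched in Scid.adh.2C2, at the 74.8th percentile, and 21.6-fold in the B progenitor line, at the 74.6th.

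Bcl2l1 encodes Bcl-xL, a survival protein of developing thymocytes and B cells. The gene (ENSMUSG00000007659) lies on the minus strand of chromosome 2 from 152780668 to 152831728 and has 9 annotated TSSs. In Scid.adh.2C2 it had 1 promoter peak of 1178 bp (chr2:152830603-152831780) with a fold enrichment of 15.1, at the 36.8th percentile. The B progenitor line had a pair of neighbouring peaks there. The first, of 1677 bp (chr2:152830536-152832212), was 25.7-fold enriched, at the 88.8th percentile, and the second, of 5792 bp (chr2:152824676-152830467), was 19.7-fold enriched and had its summit in an intron. The summits of the first peak and of the peak in Scid.adh.2C2 were 27 bp apart. The summed width of 7469 bp was 6.34 times that in Scid.adh.2C2, a ratio at the 99.5th percentile of the 9261 genes marked in both lines, and that of Bcl2, 5.29, was at the 99.3rd. The peaks contained 7 of the 9 TSSs in Scid.adh.2C2 and all 9 in the B progenitor line.

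The gene body of Bcl2l1 showed the same contrast as that of Bcl2. A total of 14 peaks overlapped it in the B progenitor line and covered 48.7% of its 51.061 kb, and in Scid.adh.2C2 1 peak covered 2.21%. The 12 peaks of the B progenitor line outside the promoter windows ranged from 5.36-fold to 18.0-fold enrichment, all with their summits in introns. They fell mainly into a run next to the promoter, up to 13987 bp from the upstream TSS, and a run between 36868 and 47276 bp from it. The highest of the second run was a narrow peak of 654 bp with 18.0-fold enrichment (chr2:152786746-152787399). A difference of at least 5 gene body peaks in favour of the B progenitor line was found for 2 of the 10 members, Bcl2 and Bcl2l1, and for 0.396% of all protein-coding genes. In favour of Scid.adh.2C2 it was found for 0 members and for 0.146% of all genes. The threshold of 5 was set after values were seen, and the shares are over genes of any length. The call for Bcl2 and Bcl2l1 also depended on how weak and split peaks were treated. For Bcl2, 3 peaks remained in the B progenitor line with at least 10-fold enrichment, 5 with lists of equal length and 5 after merging of peaks less than 1000 bp apart, against 1 in Scid.adh.2C2 in each case, so that the call was lost under all of them. For Bcl2l1, 6, 8 and 4 remained, against 1, and the call was lost with merging. The peak at the next promoter upstream, that of Tpx2, was 37.4-fold enriched in Scid.adh.2C2 and 28.4-fold in the B progenitor line. These folds stood at the 95.9th and 95.1st percentiles.

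**Figure D2:**
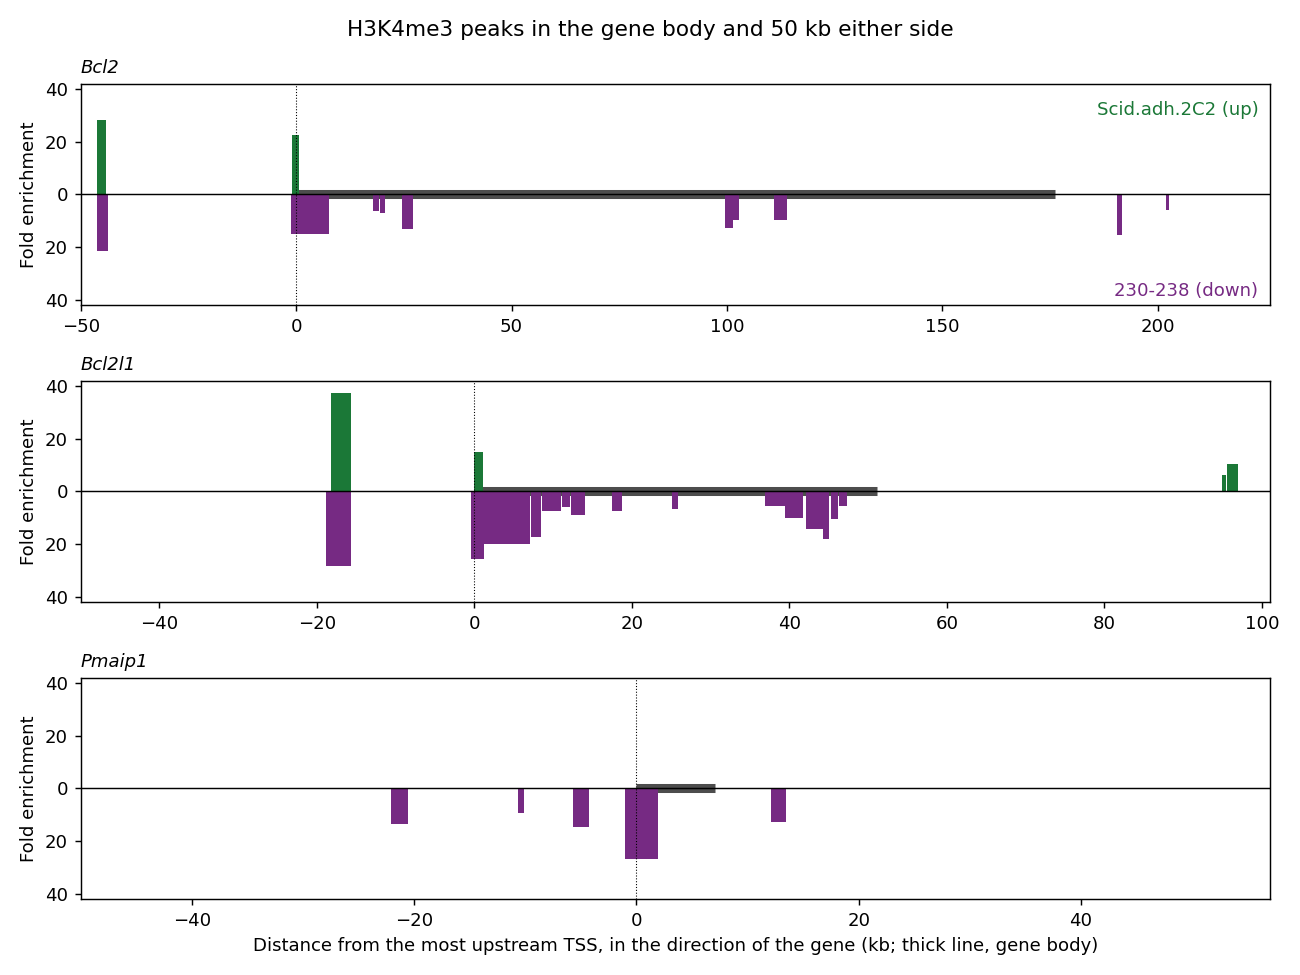
H3K4me3 peaks in and 50 kb around Bcl2, Bcl2l1 and Pmaip1, with the distance from the most upstream TSS in kb on the x axis, fold enrichment on the y axis (Scid.adh.2C2 upwards, the B progenitor line downwards), 1 bar per peak (narrow peaks are widened to stay visible) and the gene body as a thick line. The Bcl2 body holds 7 peaks and the Bcl2l1 body 14 in the B progenitor line, against 1 each in Scid.adh.2C2, and around Pmaip1 only the B progenitor line has peaks.

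Mcl1 encodes a short-lived survival protein that developing lymphocytes need. The gene (ENSMUSG00000038612) lies on the plus strand of chromosome 3 from 95658788 to 95663176. Its peak was 22.2-fold enriched and 3582 bp wide in Scid.adh.2C2 (chr3:95658018-95661599) and 25.0-fold enriched and 4337 bp wide in the B progenitor line (chr3:95657652-95661988). The summits, in an intron, were 1 bp apart. This position was thus shared, while the fold stood at the 55.4th percentile in Scid.adh.2C2 and the 86.9th in the B progenitor line. The mark covered 64.1% of the small gene in Scid.adh.2C2 and 96.9% in the B progenitor line. In the latter a second, weak peak of 6.12-fold enrichment, at the 3.79th percentile, lay over the 3′ end of the gene. With a promoter window of 5000 bp this second peak was included, and the width ratio rose from 1.21 to 1.82. A distal peak between 13224 and 15463 bp downstream of the TSS was found in both lines, 17.0-fold enriched in Scid.adh.2C2 and 11.5-fold in the B progenitor line.

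Bcl2l11 encodes Bim, the BH3-only protein that removes autoreactive and cytokine-deprived lymphocytes. The gene (ENSMUSG00000027381) lies on the plus strand of chromosome 2 from 128126038 to 128162547 and has 6 TSSs. Scid.adh.2C2 had 3 promoter peaks of 2250, 491 and 2359 bp, 29.4-fold, 26.0-fold and 23.8-fold enriched, the highest at the 78.8th percentile. The B progenitor line had 2, one of 576 bp upstream of the gene with 14.5-fold enrichment and one of 3197 bp (chr2:128126021-128129217) with 27.1-fold enrichment, at the 92.5th percentile. The third peak of Scid.adh.2C2 (chr2:128129744-128132102), with its summit in an exon 2167 bp downstream of the nearest TSS, had no counterpart in the B progenitor line. The summed width was 5100 bp against 3773 bp in the B progenitor line, a ratio of 0.740 at the 4.86th percentile of all shared genes. Bcl2l11 had the lowest ratio of the members. This order rested on the third peak, as with a window of 1000 bp, which leaves it out, Scid.adh.2C2 had 2741 bp and the ratio was 1.38. Weaker intronic peaks between 26190 and 28457 bp from the upstream TSS and peaks between 76986 and 80193 bp, downstream of the gene, were found in both lines.

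Bmf encodes a BH3-only protein held at the cytoskeleton. The gene (ENSMUSG00000040093) lies on the minus strand of chromosome 2 from 118528757 to 118549687 and has 8 TSSs, which spread over several kilobases. There were 3 promoter peaks in Scid.adh.2C2 and 4 in the B progenitor line. The upstream peak was the highest in each line, with 19.4-fold enrichment at the 47.5th percentile in Scid.adh.2C2 (chr2:118547580-118550543) and 21.0-fold at the 72.4th percentile in the B progenitor line (chr2:118546723-118550929). Their summits were 7 bp apart. The downstream peaks were between 7.09-fold and 10.8-fold in Scid.adh.2C2 and between 5.10-fold and 10.1-fold in the B progenitor line. The summed widths of 6057 and 6651 bp were close to each other, and their order turned with peaks of at least 10-fold enrichment, to a ratio of 0.940.

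Bbc3 encodes Puma, the BH3-only protein that p53 induces after DNA damage. The gene (ENSMUSG00000002083) lies on the plus strand of chromosome 7 from 16308393 to 16318205. Its mark was broad in both lines, with a peak of 5685 bp (chr7:16309019-16314703) in Scid.adh.2C2 and one of 5257 bp (chr7:16308815-16314071) in the B progenitor line, which overlapped over 5053 bp. The fold enrichment was 29.9 at the 80.1st percentile in Scid.adh.2C2 and 27.4 at the 93.2nd percentile in the B progenitor line. Both peaks began downstream of the most upstream TSS, by 626 and 422 bp, and contained the internal start sites. The summits were 1436 bp apart. A peak of 238 bp with 4.38-fold enrichment covered the upstream part in the B progenitor line.

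Pmaip1 encodes Noxa, a BH3-only protein that binds Mcl1. The gene (ENSMUSG00000024521) lies on the plus strand of chromosome 18 from 66458533 to 66465565. Its promoter carried, in the B progenitor line, a peak of 2933 bp (chr18:66457516-66460448) with 26.6-fold enrichment, at the 91.4th percentile, which contained all 3 TSSs. In Scid.adh.2C2 no peak passed the authors' thresholds at this promoter, and the nearest peak was 455 kb away. The list of Scid.adh.2C2 was empty over 1202 kb around the gene, between 66003097 and 67205338, in which the B progenitor line had 6 peaks with fold enrichments from 9.25 to 26.6. A total of 3 of them lay upstream of Pmaip1 within 50 kb and 1 downstream, with 9.25-fold to 14.6-fold enrichment. With the promoter peak, 5 of the 6 lay in the gene or within 50 kb of it, so the rest of the interval held few peaks in either line. The interval was defined by the gap in the list of Scid.adh.2C2, and how often such gaps occur in either list was not counted. The chromosome held 380 peaks in Scid.adh.2C2 and 497 in the B progenitor line. Whether signal below the thresholds was present in Scid.adh.2C2 cannot be seen from a peak list.

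Bid encodes a BH3-only protein that is cut by caspase 8 and links death receptors to the mitochondrion. The gene (ENSMUSG00000004446) lies on the minus strand of chromosome 6 from 120891930 to 120916853. Its fold percentile was lower in the B progenitor line by more than that of any other member. With lists of equal length, an alternative chosen after seeing the data, the percentiles were 96.5 and 35.0. That setting shortened only the list of the B progenitor line and lowered the members' percentiles there alone. A lower value there was thus fixed in advance and is no support. In Scid.adh.2C2 the peak was 38.0-fold enriched, rank 538 of 15513, and 2234 bp wide (chr6:120915149-120917382). In the B progenitor line it was 15.0-fold enriched, rank 10086 of 19604, and 3244 bp wide (chr6:120914176-120917419), with a small second peak of 315 bp. The mark was thus narrower and ranked higher in Scid.adh.2C2, with the 96.5th against the 48.5th percentile by fold. Ranked by −log10 q, the percentiles were 93.5 and 64.7. The width ratio was 1.59, and it was 1.45 with peaks of at least 10-fold enrichment or with lists of equal length, in which the small peak was left out. The main peaks also lay in the TSS window of Gm44260, and the lists do not tell which gene a peak belongs to.

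Each of the effector genes Bax and Bak1 had 1 promoter peak in each line, above the median of the list in fold and in width. Bax (ENSMUSG00000003873) lies on the minus strand of chromosome 7 from 45461697 to 45466898. Its peak was 28.7-fold enriched and 1778 bp wide in Scid.adh.2C2 (chr7:45465715-45467492) and 23.7-fold enriched and 1834 bp wide in the B progenitor line (chr7:45465671-45467504). By rank the order was the opposite, with the 76.6th percentile in Scid.adh.2C2 and the 82.6th in the B progenitor line. The peak of Scid.adh.2C2 lay wholly inside that of the B progenitor line and made up 96.9% of it, and all 6 TSSs were inside a peak in both lines. By this overlap, Bax had the most similar peaks of the members. With a window of 5000 bp, a peak at the start of the neighbouring gene Ftl1 was added in both lines and the width ratio was 0.822 in place of 1.03. Bak1 (ENSMUSG00000057789), on the minus strand of chromosome 17 from 27019810 to 27029009, had the highest fold of the members in each line. It was 40.3 in Scid.adh.2C2, rank 266 of 15513, and 27.9 in the B progenitor line, rank 1145 of 19604. The peak was 2214 bp wide (chr17:27026764-27028977) and 3027 bp wide (chr17:27025611-27028637), with the summits 298 bp apart in an intron. In the B progenitor line it began 372 bp downstream of the most upstream TSS and had an IDR score of 872, below the highest score of 1000. The window of Ggnbp1 overlaps this peak in both lines.

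**Figure D3:**
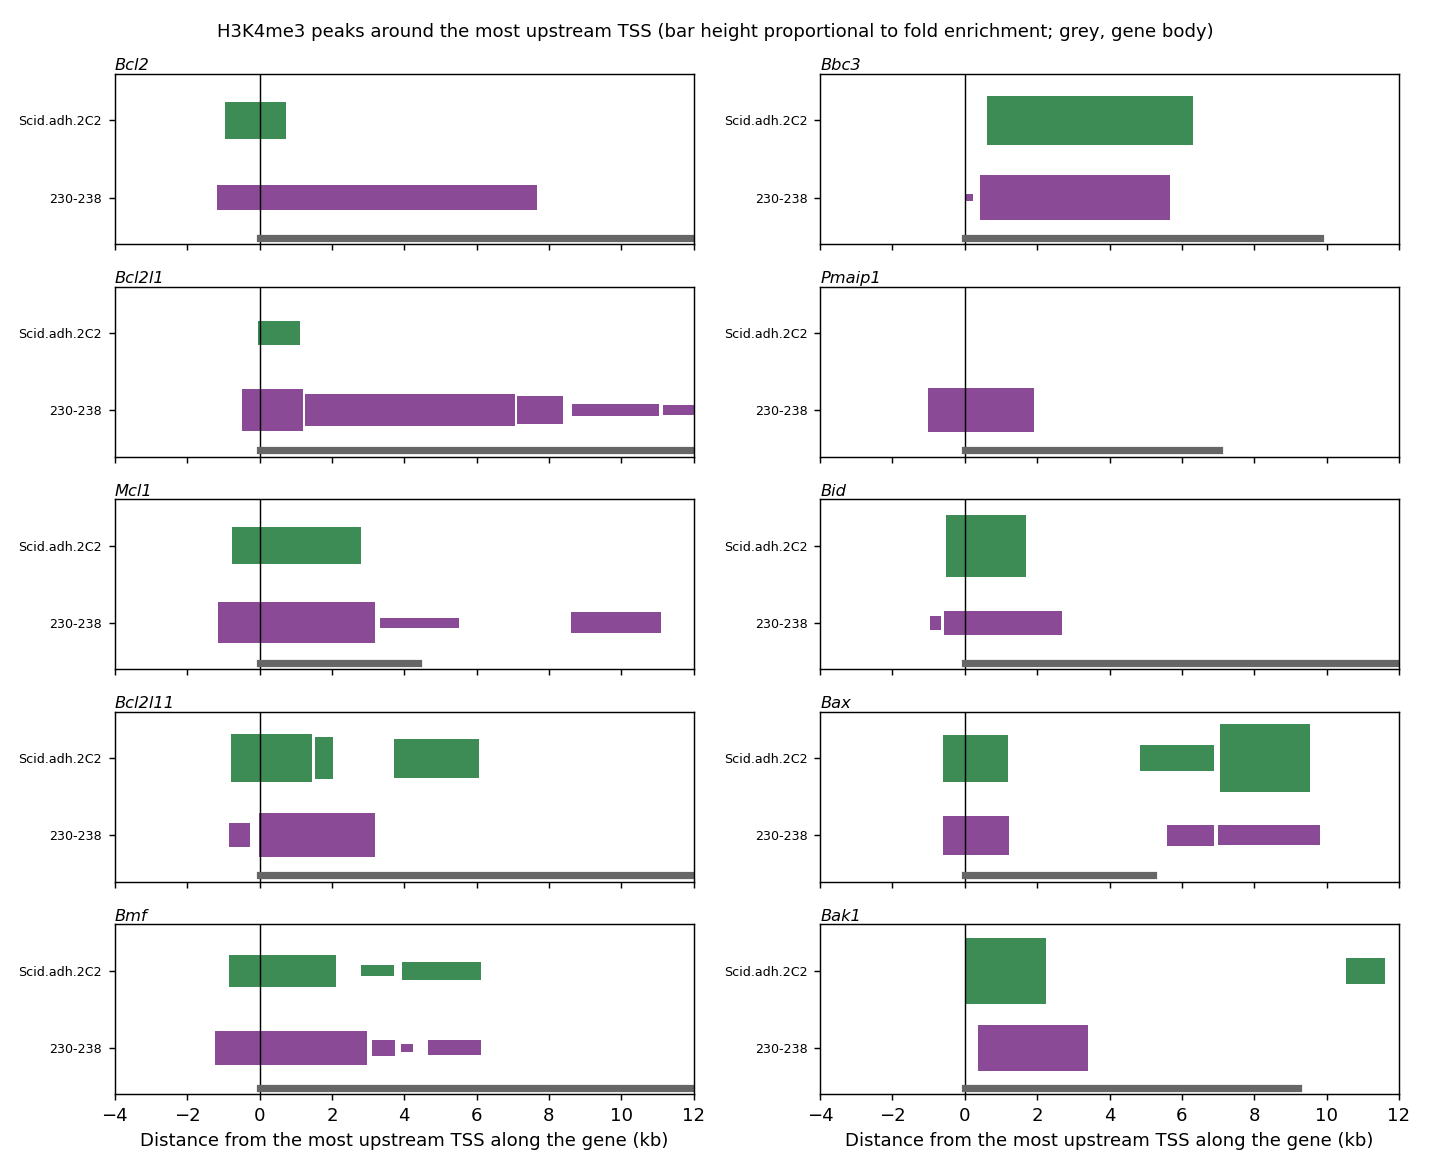
H3K4me3 peaks from 4 kb upstream to 12 kb downstream of the most upstream TSS (vertical line) of each member, with the distance in kb along the gene on the x axis, 1 row per line, bar height proportional to fold enrichment and the gene body in grey. The Bcl2 and Bcl2l1 peaks of the B progenitor line reach far into the genes, the third Bcl2l11 peak is found in Scid.adh.2C2 only, and the Bax promoter peaks are nearly the same in both lines.

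Over the 9 members marked in both lines, the summed promoter peaks were wider in the B progenitor line for 7, and narrower for Bcl2l11 and Bbc3. The median ratio was 1.21 (0.28 on the log2 scale), against 1.13 (0.18) over all 9261 shared genes, whose peaks were thus also wider in the B progenitor line. The lower quartile of the log2 ratio over these 9261 genes was 0, so that most of them were not narrower there. Their exact share with wider peaks was not counted, and 7 of 9 is therefore not read as a trait of the members. A ratio of at least 1.5 was found for 3 members (Bcl2, Bcl2l1 and Bid), against 18.0% of all shared genes. This count changed its members with the setting, as Bid was lost with peaks of at least 10-fold enrichment or lists of equal length (1.45) and Mcl1 was gained with a window of 5000 bp (1.82) or merging (1.86). A ratio as large in favour of Scid.adh.2C2 was found for 0 members, against 3.34%. A promoter peak wider than the 95th percentile of its list was found for 2 members in Scid.adh.2C2 (Mcl1 and Bbc3), against 9.24% of the genes marked there. Of the members in the B progenitor line it was found for 5 (Bcl2, Bcl2l1, Mcl1, Bmf and Bbc3), against 10.4%. Some of these calls lay close to the cutoff. The width percentile was 95.6 for Mcl1 in Scid.adh.2C2, and 96.0 for Mcl1 and 95.5 for Bmf in the B progenitor line. The call was not repeated under the alternatives. The fold percentile was at least 20 points higher in the B progenitor line for 3 members (Bcl2l1, Mcl1 and Bmf), against 22.7% of all shared genes, and at least 20 points higher in Scid.adh.2C2 for 1 (Bid), against 14.1%. These calls depended on the ranking: by −log10 q the difference for Mcl1 was 14.9 points and no longer called, while Bcl2 (31.3) and Bbc3 (26.9) were called, and by width Bcl2 alone was called (44.9). With lists of equal length Bmf was no longer called (17.6), and Bcl2 was called in favour of Scid.adh.2C2, where it stood at the 56.0th percentile against the 34.6th. Equal length shortened only the list of the B progenitor line and lowered the members' percentiles there alone. Both changes follow from this. The median difference in percentile, the B progenitor line minus Scid.adh.2C2, was 13.0 points for the members and 2.74 points for all shared genes. Within the gene bodies and 50 kb either side of them, the 10 members had 47 peaks in Scid.adh.2C2 and 77 in the B progenitor line, of which 13 and 17 lay in their promoter windows. Much of this difference came from Bcl2 (2 and 10) and Bcl2l1 (4 and 15), while Bcl2l11 (7 and 6) and Bid (3 and 2) went the other way. Peaks at promoters of neighbouring genes were included. The whole list of the B progenitor line was also longer, with 19604 peaks against 15513, and the same count was not made over all genes.

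**Figure D4:**
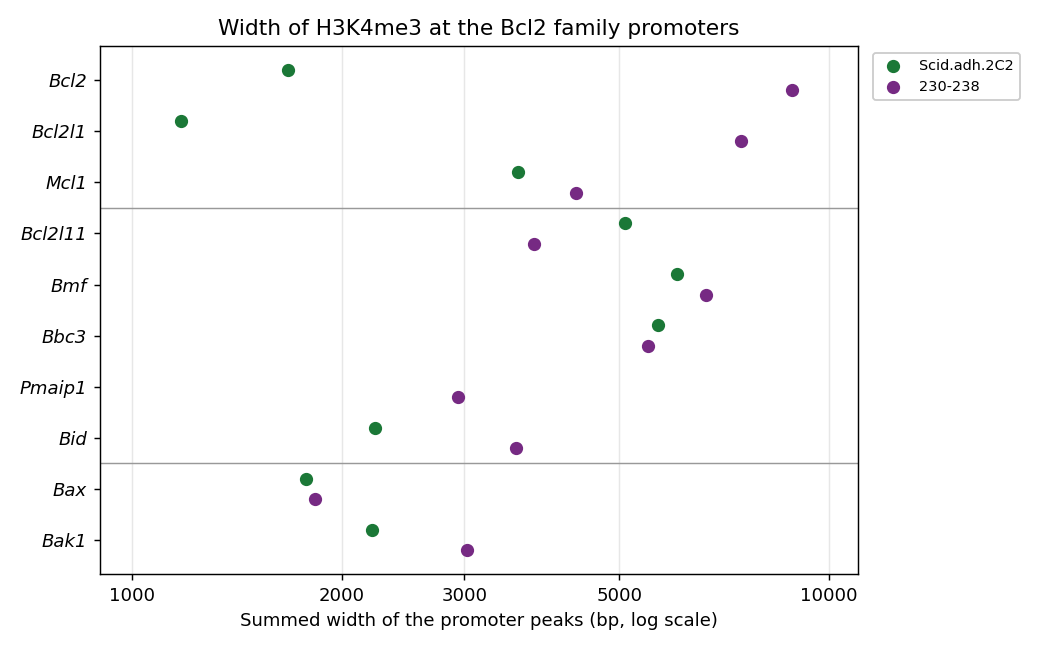
Summed width of the promoter peaks of each member in bp (x axis, log scale), with 1 point per line and horizontal lines between the anti-apoptotic, BH3-only and effector genes. Bcl2 and Bcl2l1 have the 2 largest summed widths in the B progenitor line, at 8858 and 7469 bp, and 2 of the smallest in Scid.adh.2C2, at 1675 and 1178 bp, and Bax lies at 1778 and 1834 bp.

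The remaining apoptosis genes were described from 5 lists. Of 13 other genes of the Bcl2 family, 5 were marked in Scid.adh.2C2 and 8 in the B progenitor line, where 45.5% and 48.2% of all protein-coding genes were marked. Those marked in the B progenitor line only were Bcl2l2, which encodes the survival protein Bcl-w (25.8-fold), Bok, a relative of Bax and Bak (24.2-fold), and Bcl2a1d (7.26-fold). Bcl2a1d belongs to a group of near-identical copies between which reads cannot be placed with certainty. The highest fold in both lines was that of Bad, a BH3-only gene controlled by survival kinases, at 39.2 in Scid.adh.2C2 and 26.4 in the B progenitor line. In neither line were Bcl2a1a, Bcl2a1b, Bcl2l10, Bik and Hrk marked.

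The counts of the remaining lists stand beside the same shares of 45.5% and 48.2% of all protein-coding genes. Of 13 genes of the mitochondrial and caspase machinery, 12 were marked in Scid.adh.2C2 and 13 in the B progenitor line. The highest fold was that of Cycs, which encodes cytochrome c, in Scid.adh.2C2 (37.5) and that of Htra2, a protease released from mitochondria, in the B progenitor line (31.1). Of 5 caspase inhibitor genes, 5 were marked in Scid.adh.2C2 and 4 in the B progenitor line, with Birc3 (17.7-fold) in Scid.adh.2C2 only and Birc6 the highest in both, at 34.7 and 31.4. Of 9 genes of the death receptor arm, 6 were marked in each line, and Fasl, Tnfrsf10b and Tnfrsf1a in neither. The adaptor gene Tradd was the highest in Scid.adh.2C2 (34.1) and Cflar, an inhibitor of caspase 8, in the B progenitor line (29.9). Of 14 genes that regulate the members, 14 were marked in Scid.adh.2C2 and 13 in the B progenitor line. The exception was Bcl11b, a T-lineage transcription factor gene, with 33.2-fold enrichment in Scid.adh.2C2. Fbxw7, a ubiquitin ligase gene for Mcl1, was the highest in Scid.adh.2C2 (38.7) and E2f1 in the B progenitor line (30.2).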

How the data were processed

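H3K4me3 ChIP-seq was analysed from 1 peak list per line. Per the labels' processing notes and the study's methods, reads were trimmed with Trim Galore 0.6.7 and mapped to mm10 (GRCm38) with Bowtie2 2.4.4. Peaks were called with MACS2 2.2.7.1 in narrow mode at a q-value of 0.05 against the matching input, and the optimal set at an irreproducible discovery rate (IDR) of 0.05 between the 2 libraries was kept. The deposited values are an IDR score, a fold enrichment ratio, a −log10 p-value, a −log10 q-value and the summit offset, all used as the authors gave them. The list of Scid.adh.2C2, whose name carries the short form P2C2, was assigned to that line from the study's list of data sets. A wide marked region can be split into several peaks in narrow mode, so that widths were summed per gene, and the absence of a peak means only that none passed both thresholds.

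TSSs and genes were taken from GENCODE vM21 (GRCm38). A peak overlapping the 2500 bp either side of any TSS of a gene by at least 1 bp was a promoter peak, and a peak within reach of several genes was counted for each. Percentiles were computed within a list. Ddit3 has several gene identifiers, of which 1 was used. All 10 members are named, and from the other lists the genes marked in 1 line only and the highest in each line. A gene that this rule names is not reported here. Markers are given as counts and examples. The members and lists were chosen with earlier results of these data known. The thresholds for width, percentile and gene body peaks were set after values were seen. No test was made, because no list holds replicate values. The overlap functions were tested on simulated data. Alternatives were windows of 1000 and 5000 bp, other TSS, peak and overlap filters, lists of equal length and other rankings. Python 3.11.15, numpy 2.4.6, pandas 2.3.3 and matplotlib 3.10.9 were used.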

Additional observations from a re-analysis of the deposited data

How the results depend on the processing

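The members counted as marked in each line and in both kept their number within 1.5 times under all 8 alternative windows, TSS choices and peak filters. With nearly every member marked, this rule allows the loss of several. Each highest fold was above 10, and a window of 5000 bp can only add peaks. The 10-fold filter and the wider window could thus not lower the counts, and for them this is no sign of stability. With only peaks of the highest IDR score of 1000, Bak1 lost its promoter peak in the B progenitor line and 9 members were left there. Each highest promoter fold kept its value wherever a peak remained. The peak filters keep or drop whole peaks and cannot change the fold of a kept peak, so for them this is no sign of stability. A reciprocal overlap of 50% between the peaks of the lines was reached by 7 of the 9 shared members, and not by Bcl2 and Bcl2l11. At Bcl2l11 the closest pair overlapped over 65.6% of the peak of Scid.adh.2C2 and 46.2% of that of the B progenitor line. The share of all shared genes that reach this overlap was not counted, so this count is not read as a trait of the members. The gene body counts, whose alternatives were chosen after seeing the data, depended on the setting: of the 7 Bcl2 peaks in the B progenitor line, 3 had at least 10-fold enrichment, 5 remained with lists of equal length and 5 after merging, and the 14 Bcl2l1 peaks became 6 with this filter, 8 with lists of equal length and 4 after merging of peaks less than 1000 bp apart. In each case the change follows from how the setting removes or joins peaks. The width ratio of Bcl2 was 5.29 under every alternative, as each line had 1 promoter peak there that every setting kept whole. The ratio of Bcl2l1 lay between 6.34 and 12.3. All 19 percentiles moved when ranked by −log10 q, by width or among marked genes. The sign of the difference between the lines, B progenitor line minus Scid.adh.2C2, turned by −log10 q for Bcl2 (31.3 points) and Bak1 (0.299), and by width for Bcl2 (44.9), Bid (14.3), Bak1 (12.4) and Bbc3 (-1.37). Among marked genes, Bcl2l11 (21.5) and Bbc3 (20.6) were also at least 20 points higher in the B progenitor line. No paired analysis was possible because each deposited list combines both libraries of a line, and for the same reason no library could be left out. The depth of the libraries is unknown, which limits what can be said of a missing peak.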
